A study of Mus musculus with 2 samples.

Results

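The genes described here are 10 interleukins that lie outside the core type 1 cytokine program of CD8 T cells: the type 2 interleukins Il4, Il5 and Il13, the mast cell growth factor gene Il9, Il10 and its relative Il24, Il17a, Il21, Il23a and Il16. They were chosen by gene symbol in the authors' annotated array table, which held all 10 among 21877 genes, and each had 1 probe set, so no choice between probe sets was needed. Cholesterol-treated cells were mouse CD8 T cells that were given cholesterol during culture with Tc1 cytokines, and untreated cells were mouse CD8 T cells under the same cytokines with no added cholesterol. Tc1 cytokines steer CD8 T cells toward making interferon gamma and killing target cells. The comparison is between expression with and without cholesterol in these cells. The sources used here do not give the dose, duration or vehicle of cholesterol, nor the strain, age or tissue of the mice. Each condition had 1 array, so differences are given without replicate errors or p-values, and having 2 arrays limits the precision of every value.

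Interleukins are secreted proteins through which leukocytes act on each other, and each acts on cells that carry its receptor. T cells make most of those described here after stimulation of the T cell receptor, and the set a T cell makes depends on the cytokines present during its differentiation. Type 1 conditions favour interferon gamma and disfavour the type 2 interleukins and IL-17A. Il16 differs from the rest in that its precursor protein is made by resting T cells.

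Each probe set has 1 linear signal per array. The negative controls, 5222 probe sets on the same arrays, set the level read as background. Their 95th percentile was a signal of 121.8 on the cholesterol array and 130.3 on the untreated array, and a gene at or below it is described as within the negative control range. All 6 CD8 T cell markers listed were above this range on both arrays, with Cd8a at 3780 with cholesterol and 3274 without. The 99th percentile of the controls was 855.1 with cholesterol and 916.5 without, and the brightest reached 9157 with cholesterol and 9349 without. A signal above the range is therefore not by itself proof of expression. The median gene signal was 47.3 on the cholesterol array and 48.4 on the untreated array.

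Of the 10 interleukin genes, Il16 was above the negative control range on the cholesterol array, and Il16, Il24 and Il13 were above it on the untreated array. The other 7 genes, Il4, Il5, Il9, Il10, Il17a, Il21 and Il23a, did not exceed it on either array. Among all genes, 35.0% were above the range on the cholesterol array and 33.2% on the untreated array. Il13 was the member closest to the limit on its upper side, since 95.04% of the negative controls on the untreated array had a lower signal. Il23a was the closest on the lower side, with 92.99% of them below it. The choice of limit decides these calls. At the 99th percentile of the controls 0 members were above it on either array, which also ends the minimum folds of Il24 and Il13, and at their median 8 were above it with cholesterol and 7 without. A gene within this range may still be expressed at a low level, and no fold is read from its signals here.

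**Figure D1:**
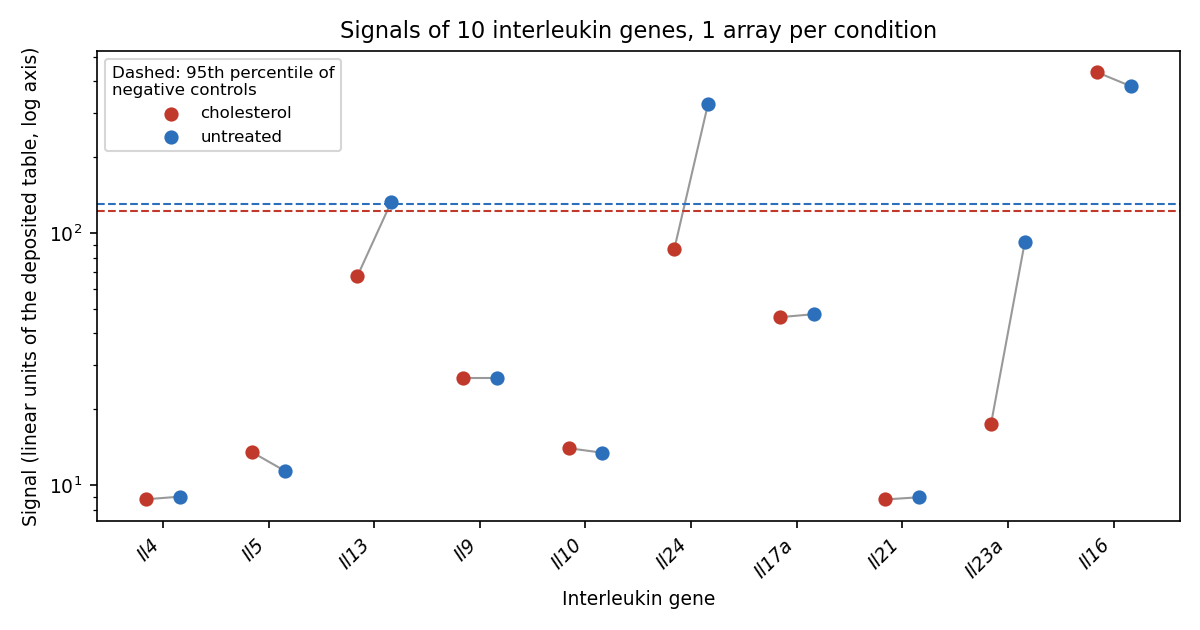
Signals of the 10 interleukin genes on a log axis, with the cholesterol array (red) left of the untreated array (blue) for each gene, and dashed lines at the 95th percentile of the negative controls of each array (121.8 with cholesterol, 130.3 without). Il24 and Il13 lie above their line without cholesterol and below it with cholesterol, Il23a lies below the lines on both arrays, and Il16 lies above them on both.

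In the deposited signals, 2 of the 10 genes, Il24 and Il23a, were at least 2-fold lower with cholesterol, and 0 were at least 2-fold higher. Such counts use deposited signals whether or not they exceed background, and Il23a enters them with both signals within the negative control range. Il13 was also past 1.5-fold lower, which made 3 of 10. Among all 21877 genes, 0.498% (109 genes) were at least 2-fold lower and 0.233% (51 genes) at least 2-fold higher, or 84 lower and 67 higher after centring each array on its median. At 1.5-fold, 3.91% (856 genes) were lower and 2.73% (597 genes) higher, or 684 lower and 754 higher after centring. These shares cannot be read as independent support, because the 10 genes were put together with earlier results of these arrays known. The median log2 difference, cholesterol minus untreated, was -0.031 over the 10 genes (0.013 after centring and 0.0074 after loess) and 0.0 over all genes. Outside Il24, Il23a and Il13, the differences lay between -0.040 and 0.25 on the log2 scale. The central 95% of the negative controls' own log2 differences ran from -1.10 to 1.10. The Il13 difference of -0.98 lay inside that spread and those of Il24 and Il23a outside it. The median control signal was 12.8 with cholesterol and 12.7 without, dimmer than Il24 and Il13. This spread is therefore not the error of genes at their signals, and it gives no test of the members. Since these are signals of whole cultures, fewer cells that make an interleukin and less of its RNA per cell cannot be told apart.

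**Figure D2:**
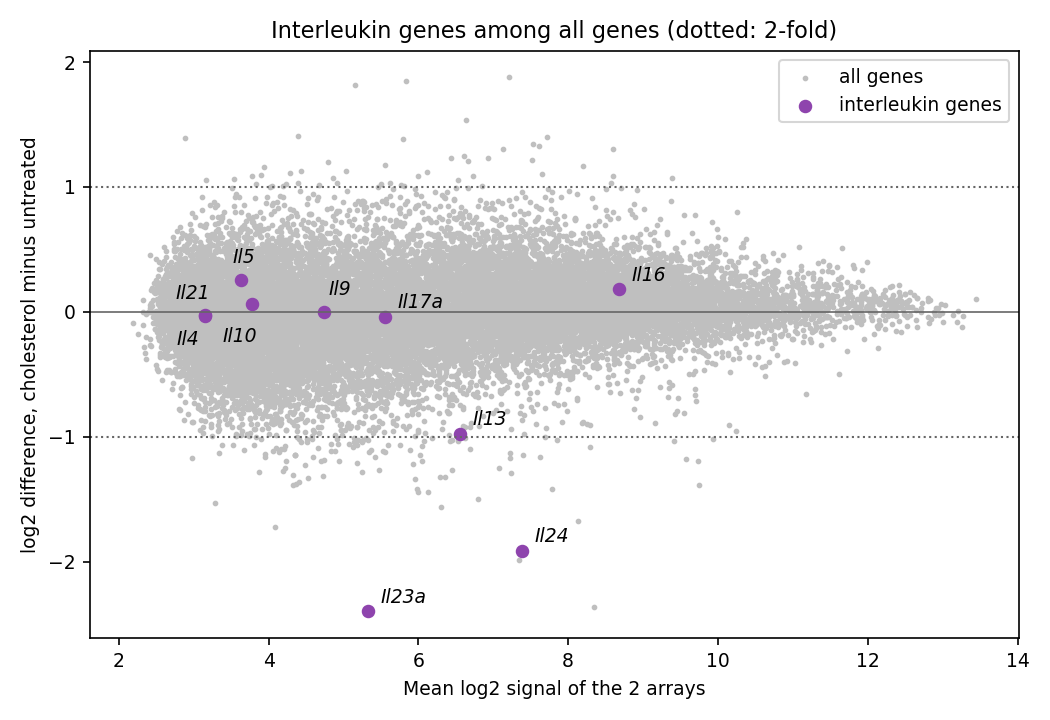
Difference in log2 signal, cholesterol minus untreated, against the mean log2 signal of the 2 arrays, for all 21877 genes (grey) and the 10 interleukin genes (purple), with dotted lines at 2-fold. Il24 (-1.91) and Il23a (-2.40) lie below the lower dotted line, Il13 (-0.98) lies just above it, and the other 7 lie between -0.040 and 0.25.

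The type 2 interleukins gave a signal above background for Il13 on the untreated array, and not for Il4 or Il5. IL-4 drives type 2 differentiation and the switch to IgE in B cells, IL-5 supports eosinophils, and IL-13 acts on epithelium and macrophages through a receptor that shares a chain with that of IL-4. Il13 had a signal of 67.4 with cholesterol and 132.5 without, a log2 difference of -0.98. Only the untreated value was above the negative control range, so Il13 was at least 1.09-fold lower with cholesterol. Il4 had a signal of 8.81 with cholesterol and 9.02 without, and Il5 of 13.6 with cholesterol and 11.4 without. Neither gene exceeded the negative control range on either array. Il4, Il13, Rad50 and Il5 follow one another on chromosome 11 in the RefSeq annotation of GRCm38.p6. Rad50, a DNA repair gene between Il13 and Il5, had signals of 590.1 with cholesterol and 604.4 without, and Irf1, an interferon-induced transcription factor beyond Il5, of 1131 with cholesterol and 1249 without. Of the genes next to Il13, Rad50 thus had nearly the same signal on each array, while Il4 was too dim for its difference to be read.

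The sequences upstream of Il13, Il4 and Il5 are shown because these genes are neighbours, and Il13 exceeded the negative control range on the untreated array while Il4 and Il5 did not. Each is the 250 bases before the gene's annotated start, from RefSeq in build GRCm38.p6, written 5′ to 3′ on the gene's own strand. For Il4, which has 2 annotated starts, the more upstream one is shown. Capitals mark GGAAA, the core letters bound by NFAT, a transcription factor activated by T cell receptor signalling, or TTTCC, the same letters on the other strand.
Il13 (chr11:53634703-53634952, minus strand): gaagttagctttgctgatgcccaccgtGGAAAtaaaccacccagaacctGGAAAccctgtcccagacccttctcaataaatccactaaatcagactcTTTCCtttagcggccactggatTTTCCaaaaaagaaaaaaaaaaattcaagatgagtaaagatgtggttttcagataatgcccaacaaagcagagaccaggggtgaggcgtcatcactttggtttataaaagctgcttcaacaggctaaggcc
Il4 (chr11:53618666-53618915, minus strand): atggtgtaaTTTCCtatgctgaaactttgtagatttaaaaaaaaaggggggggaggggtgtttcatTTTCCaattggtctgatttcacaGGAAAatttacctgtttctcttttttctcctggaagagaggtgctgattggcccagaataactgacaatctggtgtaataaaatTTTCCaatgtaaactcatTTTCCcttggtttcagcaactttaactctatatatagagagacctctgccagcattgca
Il5 (chr11:53720544-53720793, plus strand): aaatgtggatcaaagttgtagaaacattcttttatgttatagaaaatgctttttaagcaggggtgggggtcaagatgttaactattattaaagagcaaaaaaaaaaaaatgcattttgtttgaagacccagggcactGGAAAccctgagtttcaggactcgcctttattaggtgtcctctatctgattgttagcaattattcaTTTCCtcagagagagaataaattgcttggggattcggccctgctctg

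This core was found 4 times upstream of Il13, 5 times upstream of the shown Il4 start, 0 times upstream of the other Il4 start and 2 times upstream of Il5. Of all 32851 promoters in the table, 55.6% held it at least 1 time in the same window, on either strand. The Il13 window also held AGATAA, a form of the GATA motif, and TATAAA in the direction of the gene. AGATAA occurred on either strand in 9.99% of all promoters, and TATAAA on the gene's strand in 7.59%. Both matches lie outside the capitals. Neither was found in the shown windows of Il4 and Il5. None of the 3 windows held the AP-1 motif TGANTCA, which 6.75% of all promoters held on either strand. Such matches describe the letters in this window and are not evidence of binding. Promoters of 7 of the 10 genes matched the table by symbol, and those of Il10, Il24 and Il23a did not.

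Il9, a growth factor gene for mast cells and T cells and the defining cytokine of Tc9 cells, had a signal of 26.7 on the cholesterol array and 26.7 on the untreated array, identical in every digit deposited. Both values were within the negative control range, at a level above 73.4% of the negative controls with cholesterol and 73.3% without. Identical values on both arrays were found for 560 of 22206 gene probe sets, or 2.52%, and how the authors' processing gives them was not tested. No difference in Il9 could be measured at this signal.

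Among the IL-10 family, Il24 was lower with cholesterol by the largest minimum fold among the 10 genes, and Il10 stayed at background. IL-24 signals through receptors that contain the chain encoded by Il20rb and acts mainly on epithelial cells, while IL-10 restrains macrophages and dendritic cells. Il24 had a signal of 86.2 with cholesterol and 324.6 without, a log2 difference of -1.91. The untreated value was above 97.8% of the negative controls and the cholesterol value above 92.9%, and Il24 was at least 2.66-fold lower with cholesterol. In the authors' deposited table its ratio of cholesterol to untreated signal was 0.265. When all genes were divided by mean signal into 5 bands of equal size, 0.366% of those in the band of Il24, which is band 4 from the dimmest, were at least 2-fold lower. Il10 had a signal of 14.0 with cholesterol and 13.5 without, both within the negative control range.

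Il24, Il20, Il19 and Il10 lie in this order on chromosome 1 in the same annotation, with no other protein-coding gene between them. The family members Il20 (12.3 with cholesterol and 11.7 without) and Il19 (11.0 with cholesterol and 9.64 without) did not exceed the negative control range on either array. Of the 4 interleukins of this cluster, Il24 was the single one above the range on any array. Fcmr, which encodes a receptor for IgM and flanks Il24 on the other side, had signals of 49.0 with cholesterol and 83.2 without, both within the range. Leaving out the 10 interleukins themselves, 43 measured genes lay within 3 protein-coding genes of any of them, of which 0 were at least 2-fold lower or higher and Fcmr was at least 1.5-fold lower, with differences running from -0.76 to 0.47 on the log2 scale.

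**Figure D3:**
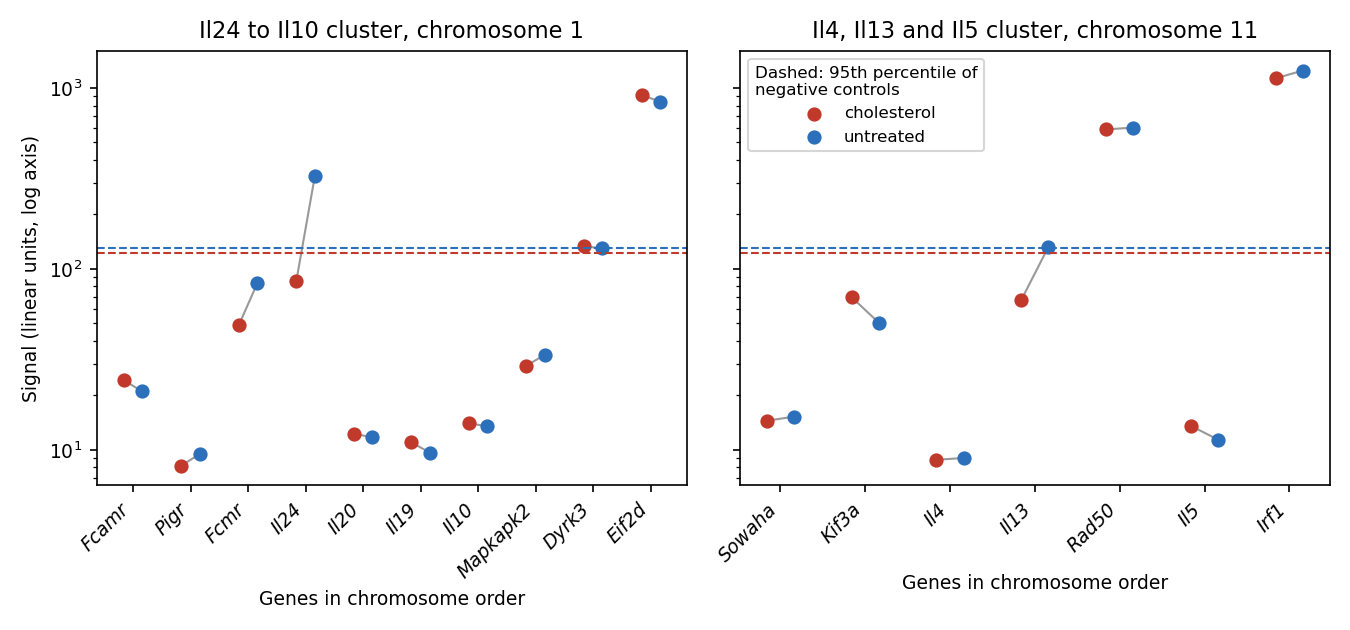
Signals on a log axis for genes in chromosome order around Il24 and Il10 (left) and around Il4, Il13 and Il5 (right), with the cholesterol array (red) left of the untreated array (blue) for each gene and dashed lines at the 95th percentile of the negative controls. Il24 and Il13 each lie above their line without cholesterol and below it with cholesterol, while the adjacent interleukin genes lie below the dashed lines on both. The Il13 difference (-0.98) is inside the central 95% of the negative controls' own log2 differences (-1.10 to 1.10), a spread that comes mostly from dimmer probe sets. Genes with no matching symbol in the table are not drawn.

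Il23a had a lower deposited signal with cholesterol, but at a level within the negative control range. Il23a encodes the p19 chain, which joins the product of Il12b to form IL-23, a cytokine mostly of dendritic cells and macrophages that maintains IL-17-producing lymphocytes. Il23a had a signal of 17.6 with cholesterol and 92.6 without, a log2 difference of -2.40, and the authors' deposited table gave a ratio of 0.190. Its place among the negative controls was above 61.3% of them with cholesterol and 93.0% without, so both values were within the range. The difference and the ratio are therefore those of deposited signals at background level, with no fold read from them. Among the 4930 negative controls within the range on both arrays, 3.57% were at least 2-fold lower and 3.59% at least 2-fold higher. Among the 14082 genes within it on both arrays, 0.597% were at least 2-fold lower, and their share higher was not counted. These shares are for differences of 2-fold or more, and that of Il23a was larger than 2-fold. Stat2 and Pan2, its neighbours on chromosome 10, had log2 differences of -0.020 and 0.46.

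The partner and receptor genes of Il23a were measured on the same arrays. Il12b had a signal of 35.7 with cholesterol and 31.2 without, within the negative control range. Il12rb1, a receptor chain shared by IL-12 and IL-23, had 471.0 with cholesterol and 629.6 without, which is 1.34-fold lower, and Il23r had 10.2 with cholesterol and 10.8 without, within the range. Il17a, which recruits neutrophils, had a signal of 46.4 with cholesterol and 47.7 without. Its neighbour and relative Il17f had 19.9 with cholesterol and 17.7 without. Both were within the negative control range. Il21, a helper T cell cytokine that acts on B cells and CD8 T cells, had 8.79 with cholesterol and 8.97 without. Il2, the T cell growth factor next to it on chromosome 3, had 13.7 with cholesterol and 17.2 without, also within the range.

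Il16 encodes a precursor whose secreted fragment attracts CD4-bearing cells. It had a signal of 434.9 with cholesterol and 382.8 without, which exceeded the negative control range on each array and lay above 98.4% of the negative controls with cholesterol and 98.1% without. The log2 difference was 0.18, or 1.14-fold higher, against a median absolute log2 difference of 0.17 over all genes on this pair of arrays. It was the single member of the 10 for which a fold could be given without a bound.

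Receptor chains for several of these interleukins were above the negative control range where the interleukin itself was not. Of 17 receptor genes, 7 were above the range on both arrays (32.5% of all genes were). None of them was at least 2-fold lower or higher, against 0.498% and 0.233% of all genes, so neither count sets the receptors apart, and their median log2 difference was -0.032 (0.011 after centring and 0.0029 after loess). Il4ra, the chain shared by the receptors of IL-4 and IL-13, had 1625 with cholesterol and 1746 without. Il2rg, the common gamma chain used by IL-4, IL-9 and IL-21, had 3603 with cholesterol and 3608 without. Il21r had 911.0 with cholesterol and 933.5 without, and Il10ra 558.6 with cholesterol and 529.2 without. Il17ra, the common chain of IL-17 receptors, had 647.6 with cholesterol and 476.5 without, which is 1.36-fold higher, and Il10rb had 745.9 with cholesterol and 658.1 without. The receptor chains of IL-24 (Il20ra, Il20rb and Il22ra1) and those particular to IL-5 and IL-9 (Il5ra and Il9r) did not exceed the negative control range on either array. Neither did Il13ra1 (12.2 with cholesterol and 17.9 without), Il13ra2, Il17rc (46.7 on each array) or Csf2rb (49.9 with cholesterol and 83.7 without).

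**Figure D4:**
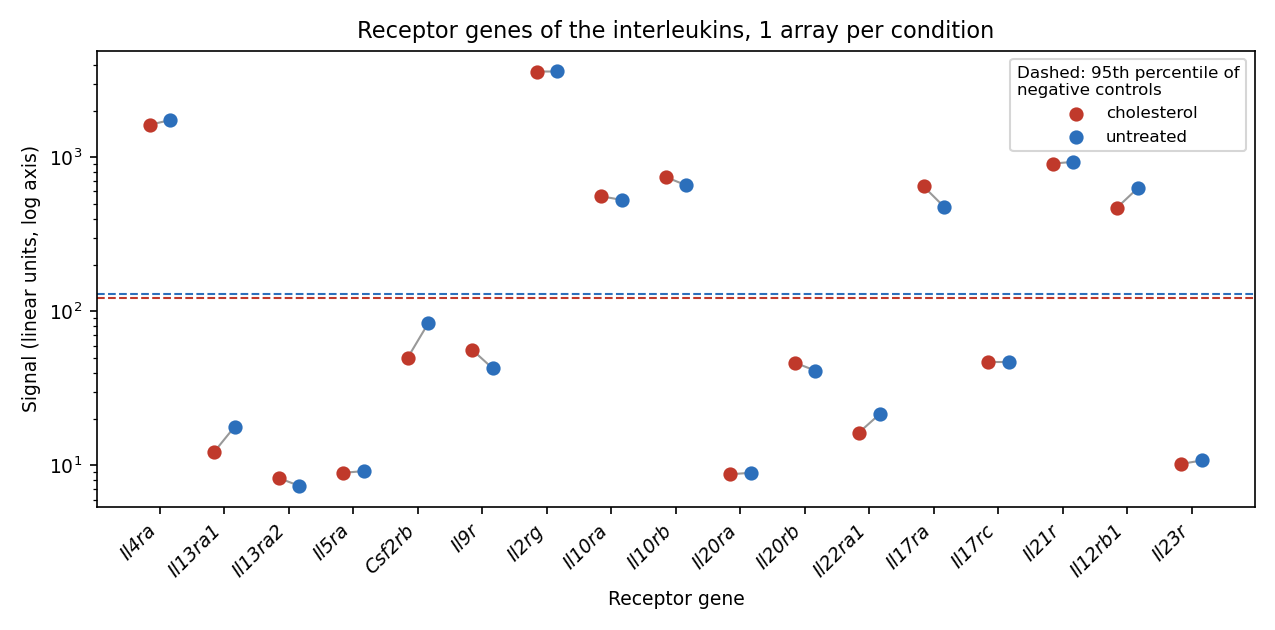
Signals of 17 receptor genes of the interleukins on a log axis, with the cholesterol array (red) left of the untreated array (blue) for each gene and dashed lines at the 95th percentile of the negative controls. The 7 genes above the lines on both arrays are Il4ra, Il2rg, Il10ra, Il10rb, Il17ra, Il21r and Il12rb1.

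Transcription factors that control these interleukins differed in both directions, 12 lower and 7 higher in signal, where 47.7% of all genes were lower. After centring 10 were lower and 9 higher, and after loess 14 were lower and 5 higher. Of 19 listed, 14 were above the negative control range on at least 1 array, against 35.6% of all genes. None was at least 2-fold lower or higher and 1 was at least 1.5-fold lower, with a median log2 difference of -0.066. With 0.498% and 3.91% of all genes lower by these folds, the counts past a fold do not set the list apart. Gata3, the type 2 lineage factor, had 594.0 with cholesterol and 578.0 without. Spi1, which encodes PU.1, a factor of IL-9 production and of myeloid and B cells, had 85.8 with cholesterol and 136.6 without, and was at least 1.12-fold lower. Fosl2, an AP-1 subunit, was 1.43-fold lower and Irf4, a factor of activated T cells, 1.23-fold lower, while Batf, its AP-1 partner, was 1.16-fold higher.

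Other interleukins gave little signal in these cultures. Of 29 listed interleukins and relatives, Ebi3, a subunit of IL-27, was above the negative control range on both arrays, with 176.7 with cholesterol and 160.6 without. Il17b was above it on the untreated array, with 98.2 with cholesterol and 139.9 without. These 2 of the 29 were above it on at least 1 array, against 35.6% of all genes. The median log2 difference of the 29 was -0.019 (0.025 after centring and 0.0097 after loess). Of them, 1 was at least 2-fold lower and 0 at least 2-fold higher, against 0.498% and 0.233% of all genes. The 1 gene was Il1rn (6.83 with cholesterol and 14.9 without), within the range on both arrays. Il3 (10.4 with cholesterol and 14.9 without), Csf2 (30.1 with cholesterol and 48.8 without) and Il22 (16.0 with cholesterol and 19.8 without) were within the range on both arrays.

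Several effector cytokines and 1 early activation gene were at least 2-fold lower in signal on these arrays, as Il24 was. Both gene lists were put together with earlier results of these arrays known. Their counts beside the shares of all genes therefore cannot be read as independent support. Of 12 effector cytokine genes, 5 were at least 2-fold lower with cholesterol and 0 at least 2-fold higher, against 0.498% and 0.233% of all genes, with a median log2 difference of -0.73. Signals were lower in 9 of the 12, against 47.7% of all genes. The difference of Tgfb1 (-0.18), 1 of the 9, was about the median absolute difference of 0.17 over all genes. Ccl4, 1 of the 5, and Xcl1, another of the 9, lay within the negative control range on each array. Ifng had 81.5 with cholesterol and 323.2 without, and was at least 2.65-fold lower. Ccl3, a chemokine, was 3.20-fold lower, Lif, a cytokine of the IL-6 family, 2.61-fold lower and Lta, lymphotoxin alpha, 2.26-fold lower. Tnfsf10, the death ligand TRAIL, was 1.47-fold higher and the chemokine gene Ccl5 1.36-fold higher. Of 14 early activation genes, 1 was at least 2-fold lower and 2 at least 1.5-fold lower, against 0.498% and 3.91% of all genes, and 0 were higher by as much. Their signals were lower with cholesterol in 14 of 14, against 47.7% of all genes, with a median log2 difference of -0.31. Nr4a1, Fos and Cd40lg among them lay within the negative control range on each array, and the differences of Jun (-0.048), Fos (-0.080) and Il2ra (-0.11) were smaller than the median absolute difference of 0.17 over all genes. Nr4a3, a nuclear receptor induced by T cell receptor signalling, had 688.9 with cholesterol and 1397 without, a 2.03-fold lower signal, while Egr3 and Egr2, factors induced by the same signal, were 1.63-fold and 1.42-fold lower and Rel, an NF-kappaB subunit, 1.42-fold lower. The 3 probe sets of Egr3 disagreed, with log2 differences from -0.71 for the brightest, used here, to 0.14.

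Markers of macrophages and dendritic cells, B cells, CD4 T cells and NK cells had lower summed signals with cholesterol. Their part in the results above was not tested. The summed signal of 9 macrophage and dendritic cell markers was 935.6 with cholesterol and 1904 without, most of it from Cd74 (562.0 with cholesterol and 1288 without) and H2-Aa (214.8 with cholesterol and 397.6 without). These 2 were the only markers of the 9 above the negative control range on either array. The defining macrophage genes Csf1r, Adgre1, Cd14 and Lyz2 did not exceed it. The 6 B cell markers summed to 389.5 with cholesterol and 672.7 without, with 6 of 6 lower, against 47.7% of all genes. Cd79a was lower by at least 2.06-fold and Cd79b by 1.26-fold, and Ms4a1 was within the range on both arrays. The 4 CD4 T cell markers summed to 717.2 with cholesterol and 959.1 without, with Cd4 at 393.1 with cholesterol and 605.0 without and Zbtb7b, a CD4 lineage factor, at 271.7 with cholesterol and 273.8 without. Of 8 mast cell and basophil markers, Cpa3 had 45.9 with cholesterol and 135.5 without, and Kit had 283.0 with cholesterol and 190.8 without. Fcer1a, Ms4a2 and Mcpt8 were within the range on both arrays. The list summed to 417.9 with cholesterol and 425.4 without, with Kit the largest part of each sum, so the near-equal sums depend on Kit. Of the 8, 5 were lower, 2 higher and 1 equal, against 47.7% of all genes lower. The 6 markers of type 2 innate lymphoid cells summed to 723.6 with cholesterol and 721.8 without, most of it from Gata3, which T cells also express, and Il1rl1 was within the range on both arrays. The 4 NK cell markers summed to 796.2 with cholesterol and 1200 without, most of it from Eomes, which CD8 T cells also express. None of the 4 measured markers of gamma delta T cells was above the range on either array. The 6 CD8 T cell markers summed to 17483 with cholesterol and 14996 without, with Cd3d 1.37-fold, Cd8b1 1.24-fold and Cd3g 1.20-fold higher.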

How the data were processed

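Total RNA from 2 cultures was labelled by a whole-transcript sense-target method and hybridised to 1 array each, per the labels' protocols. The authors deposited signal intensity values on a linear scale for 28846 probe sets, and the sources used here do not name the software, background correction or normalization behind them. The ratio column deposited by the authors equalled the quotient of cholesterol over untreated signal for all 22206 gene probe sets, within 1e-08. The series value table held the same intensities.

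Here signals were converted to log2 and subtracted, cholesterol minus untreated. Of the gene probe sets, 31 were left out because their symbol was missing, double or turned into a date. For the 201 genes with several probe sets the brightest was used. Where 1 array lay within the negative control range (up to the 95th percentile), the other array's signal was divided by that percentile and the result given as a minimum fold. Where both arrays lay within it, no fold is given. Thresholds were 1.5-fold and 2-fold. No test was possible with 1 array per group.

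The members and the 13 other gene lists were chosen with earlier results of these data known. The rule for named genes took all members, up to 4 genes of each list with the largest difference among those above the range on at least 1 array, and 11 partner, family and neighbouring genes. Other genes named and the promoter motifs were chosen after values were seen. Of the listed genes, 2 had no matching symbol. A few listed genes are not reported here. Alternatives were quantile normalization, median centring, loess (span 0.3), adding 50 to every signal, averaging probe sets and other background levels. The calculation of log2 differences was checked on simulated data with planted folds and the same noise at every signal level. The background limit and the minimum folds were not checked in this way. Python 3.11.15, pandas 2.3.3 and statsmodels 0.14.6 were used.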

Additional observations from a re-analysis of the deposited data

How the results depend on the processing

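No paired analysis was possible because each group has 1 array, and for the same reason leaving out replicates was not possible. Shifts in a log2 difference were judged against 0.17, the median absolute difference over all genes, and shifts in a count against a factor of 1.5.

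Over the 10 genes, Il24 ran from -1.98 to -1.46, Il23a from -2.40 to -1.08 and Il13 from -1.00 to -0.64 across the settings, the smallest of each with 50 added to every signal, and Il16 from 0.11 to 0.23. Il24 and Il23a were at least 2-fold lower in every setting run, and with loess Il13 was as well, which makes 3 genes. Restricted to members above the negative control range on at least 1 array, 1 gene was at least 2-fold lower, because Il23a is left out. The median over the 3 that remain was -0.98. Il24 and Il13 passed this filter through the untreated array alone. The filter itself therefore favours lower values, and this median cannot be read as support. At the 99th percentile of the negative controls, 0 members were above it on either array. With their median as that level, 8 were above it with cholesterol and 7 without.

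With 50 added, 10 genes of all were at least 2-fold lower and 6 higher, and 85 were at least 1.5-fold lower and 100 higher, so that the lean toward lower signals at 1.5-fold turned. Among genes above the negative control range on at least 1 array, 25 were at least 2-fold lower and 20 higher, and 106 at least 1.5-fold lower and 209 higher. With 50 added, list medians were -0.52 for effector cytokines, -0.22 for CD4 T cell markers, -0.35 for B cell markers and -0.18 for NK cell markers.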

Other observations

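All 10 interleukin genes carry the term cytokine activity in the authors' annotation, and 205 other genes of the table carry it as well. These were looked at after the values of the members were seen. Of the 205, 37 were above the negative control range on at least 1 array, or 18.0%. With cholesterol 9 of the 205 (4.39%) were at least 2-fold lower and 0 at least 2-fold higher, while 0.498% of all genes were at least 2-fold lower. The 9 genes were Ifng, Ccl3, Lif, Lta, Ccl22, Spp1, Il1rn, Ccl4 and Inhba, of which Spp1, Il1rn, Ccl4 and Inhba did not leave the negative control range on either array. Ccl22, a chemokine made by dendritic cells and activated T cells, had signals of 99.7 with cholesterol and 223.8 without and was at least 1.84-fold lower. The median log2 difference of the 205 genes was -0.12, and it was -0.069 over the 37 above the range. In the other direction Pglyrp1, a peptidoglycan recognition protein, had signals of 232.8 with cholesterol and 120.0 without and was at least 1.79-fold higher.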
